A study of Caenorhabditis elegans with 2 samples.

Results

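Glycolysis splits glucose to pyruvate in the cytosol, and the citric acid cycle oxidises the acetyl group made from pyruvate or fat in the mitochondrion. Gluconeogenesis runs most of glycolysis backwards and replaces its irreversible steps with enzymes of its own. The glyoxylate cycle, which nematodes possess and mammals lack, bypasses the carbon-losing steps of the citric acid cycle, so that fat can be turned into sugar. The genes of these pathways were examined for sites recovered by chromatin immunoprecipitation and sequencing (ChIP-seq) of NHR-77, a nuclear hormone receptor of Caenorhabditis elegans. The set held 40 genes taken by name from a fixed list, and all 40 occurred among the 19973 protein-coding genes of the Ensembl WBcel235 annotation. They comprised 18 glycolysis genes, 3 genes of gluconeogenesis, 3 genes for fates of pyruvate, 15 genes of the citric acid cycle with its cytosolic isoenzymes, and 1 gene of the glyoxylate cycle.

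The data came from 2 biological replicates, which formed 1 group. Both were whole L4 larvae, the last larval stage, of mixed sex, of strain OP353. This strain carries the mutation unc-119(tm4063) on chromosome III and the transgene wgIs353, from which NHR-77 is made as a fusion with green fluorescent protein (eGFP). The labels give nhr-77 as the antibody, so whether the receptor or its eGFP tag was precipitated is unclear. The sources used here do not name the promoter or the cells that drive the fusion. No untagged sample was analysed, so recovery through NHR-77 cannot be told apart from other recovery, and in whole larvae the tissues cannot be told apart.

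Each replicate list and the pooled list held 30000 regions, background included, and the authors' thresholded set held 3457 peaks. That set equals the 3457 pooled regions of highest signal value, down to a value of 46.7. The signal value is the authors' own enrichment value and has a different scale in each list, so ranks within a list (1 is strongest) are given beside it. A gene counted as having a peak where any of its protein-coding transcripts started no more than 500 bp from a summit. The read depth is unknown, and the pooled values carry no error.

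Peaks lay near the starts of 10 of the 40 genes, 25% against 10.2% of all protein-coding genes. The citric acid cycle held 6 of them among 15 genes, namely cts-1, aco-2, idh-1, idha-1, idhg-1 and mdh-2. Glycolysis held 2 among 18, pyk-1 and pyk-2, which make pyruvate kinase, the last enzyme of the pathway. Gluconeogenesis held 1 of 3 (pck-2), the fates of pyruvate 0 of 3, and the glyoxylate cycle its single gene, icl-1. The share was 40% in the citric acid cycle and 11.1% in glycolysis, the latter near the share of all genes. No test was made of these counts. The nearest upstream protein-coding gene lay on the other strand, head to head, for 9 of 15 cycle genes (60%) and 7 of 18 glycolysis genes (38.9%). Over all protein-coding genes this share was 42.2%, and whether the arrangement bears on the counts was not tested. With a window of 250 bp, 7 of the 40 genes had a peak (6.84% of all genes), 3 of them in the cycle and 2 in glycolysis. Among the 1728 strongest peaks the number was 4 (5.51% of all genes), with 3 in the cycle, 1 in gluconeogenesis and 0 in glycolysis.

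The sequences at the summits of aco-2, cts-1 and mdh-2 are shown because these peaks were the strongest of the set, that of idhg-1 because it holds an E-box, and that of dld-1 because it was the strongest among the further pathway genes. Each runs 5′ to 3′ on the strand of the gene, covers up to 50 bp on each side of the summit, and stops where an exon of a protein-coding gene begins. Coordinates are in ce11 (WBcel235), and the bases were read from the RefSeq copy of that assembly. Capitals mark a searched motif on either strand. The upstream window of aco-2, chrIII:7973387-7973466 on the plus strand, ends at the neighbouring gene eef-1B.1, and those of cts-1 are chrIII:10216841-10216941 for the stronger and chrIII:10217042-10217142 for the weaker peak, both on the minus strand. The windows of the others are chrIII:6608271-6608371 on the minus strand for mdh-2, chrIII:4568700-4568796 on the plus strand for idhg-1 and chrIV:14464204-14464304 on the plus strand for dld-1.
aco-2: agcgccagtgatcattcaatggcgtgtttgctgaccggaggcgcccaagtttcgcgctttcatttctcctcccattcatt
cts-1, stronger peak: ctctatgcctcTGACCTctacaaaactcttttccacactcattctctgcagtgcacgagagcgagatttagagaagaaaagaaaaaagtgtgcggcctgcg
cts-1, weaker peak: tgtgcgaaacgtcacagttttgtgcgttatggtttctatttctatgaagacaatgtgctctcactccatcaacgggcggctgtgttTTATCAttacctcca
mdh-2: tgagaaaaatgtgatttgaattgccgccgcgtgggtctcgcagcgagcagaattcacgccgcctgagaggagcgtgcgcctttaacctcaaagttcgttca
idhg-1: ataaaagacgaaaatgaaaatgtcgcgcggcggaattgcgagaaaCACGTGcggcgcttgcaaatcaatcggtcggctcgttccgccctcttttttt
dld-1: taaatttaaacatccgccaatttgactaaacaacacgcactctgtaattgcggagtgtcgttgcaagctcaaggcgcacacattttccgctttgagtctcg

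Of the citric acid cycle genes, aco-2 had the strongest pooled signal near its start. It encodes the mitochondrial aconitase, which turns citrate into isocitrate (WBGene00000041, chromosome III, 7973717 to 7977355). Its peak, at 7973236 to 7973595, had a pooled signal of 128 at rank 331. The summit ranked 155 in replicate 1, with a signal of 59.9, and 689 in replicate 2, with a signal of 66.6. It lay at -301 bp from aco-2 but at -30 bp from eef-1B.1, a translation elongation factor gene that faces aco-2 head to head with 330 bp between them. The summit was thus nearer to another gene, and where a peak counted for its nearest gene alone (8.51% of all genes then had a peak) aco-2 had none. An exon of the noncoding RNA gene F54H12.9 also covers the summit.

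Citrate synthase, which starts the cycle by joining the acetyl group to oxaloacetate, is encoded by cts-1 (WBGene00000833, chromosome III, 10214771 to 10216635). Upstream of it lay 2 peaks in intergenic DNA, and no other protein-coding start was within 500 bp of either. The stronger, at 10216782 to 10216961, had its summit at -256 bp and a pooled signal of 113 at rank 468. In the replicates it ranked 604 (signal 38.4) and 370 (signal 83.2). The weaker, at 10216912 to 10217271, had its summit at -457 bp, a pooled signal of 81.2 at rank 1126, and ranks of 986 and 2086. Both were among the 3457 strongest regions of each replicate, although the 2 intervals overlap and share the stretch from 10216912 to 10216961.

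Mitochondrial malate dehydrogenase, which regenerates oxaloacetate at the end of the cycle, is encoded by mdh-2 (WBGene00003162, chromosome III, 6606544 to 6608106). Its peak at 6608141 to 6608500 had a pooled signal of 92.5 at rank 807 and ranks of 1817 (signal 25.2) and 742 (signal 65.3) in replicates 1 and 2. The summit lay in intergenic DNA at -215 bp from mdh-2 and at -301 bp from the divergent gene F20H11.4. The peaks of aco-2, cts-1 and mdh-2 were the 4 strongest of the 12 peaks of the set, and they ranked within the 3457 strongest in both replicates.

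The NAD-dependent isocitrate dehydrogenase, the first carbon-losing step of the cycle, is built from subunits encoded by idha-1, idhb-1 and idhg-1, and all 3 lay close to the peak cut. The peak of idha-1 (WBGene00009664, chromosome I) had a pooled signal of 52.6 at rank 2848, with its summit at -195 bp. It ranked 1685 in replicate 2 (signal 46.6), and no region of replicate 1 overlapped it, as was the case for 0.955% of all peaks. The peak of idhg-1 (WBGene00009440, chromosome III, 4568797 to 4571865), at 4568570 to 4568929, had a pooled signal of 47.7 at rank 3335 and its summit at -47 bp. This peak ranked 1721 in replicate 2 (signal 46.2) and its nearest overlapping region ranked 16341 in replicate 1 (signal 7.85). The region of idhb-1 fell just below the cut, with a pooled signal of 44.3 at rank 3718 and its summit at -44 bp, and it ranked 4887 and 3981. The peaks of idha-1 and idhg-1 were thus among the 3457 strongest regions of replicate 2 and not among those of replicate 1.

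The NADP-dependent isocitrate dehydrogenases, which supply reducing power, differ in compartment. A peak lay near idh-1, the cytosolic form (WBGene00010317, chromosome IV, 9439078 to 9441107), at 9438928 to 9439287. It had a pooled signal of 53.5 at rank 2755 and ranks of 5040 (signal 14.9) and 2515 (signal 37.9). Its summit lay in the 3′ untranslated exons in which idh-1 and the convergent gene F59B8.1 overlap. It was counted only because a short transcript of idh-1 is annotated with a start 298 bp from it, and with the start of the gene record alone (9.6% of all genes then had a peak) idh-1 had none. The strongest region near a start in replicate 1 was another, at -434 bp and rank 1875. The mitochondrial form, idh-2, had a region at rank 4920 (signal 36.0), below the cut.

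The remaining 7 cycle genes all had weaker regions near a start. Fumarase, encoded by fum-1, was nearest to the cut, with a pooled signal of 42.7 at rank 3930, a summit at -7 bp, and ranks of 7320 and 2682 in the replicates. The cytosolic malate dehydrogenase gene mdh-1 ranked 5050 and the cytosolic aconitase gene aco-1 ranked 5262, the latter at 3143 in replicate 1. Beyond the window, a peak of rank 1268 lay in an intron of aco-1, 840 bp downstream of its start. With a window of 1000 bp (13.2% of all genes then had a peak) aco-1 was counted. The oxoglutarate dehydrogenase complex had dlst-1 at rank 7479 (signal 26.0) and ogdh-1 at 8730 (signal 23.2). Of the subunits of succinyl-CoA ligase, suca-1 ranked 7082 and sucg-1 only 24905 (signal 10.6). By compartment, 5 of 12 mitochondrial enzymes and 1 of 3 cytosolic isoenzymes had a peak, against 10.2% of all genes, and the cytosolic one was idh-1, counted only through its short transcript.

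**Figure D1:**
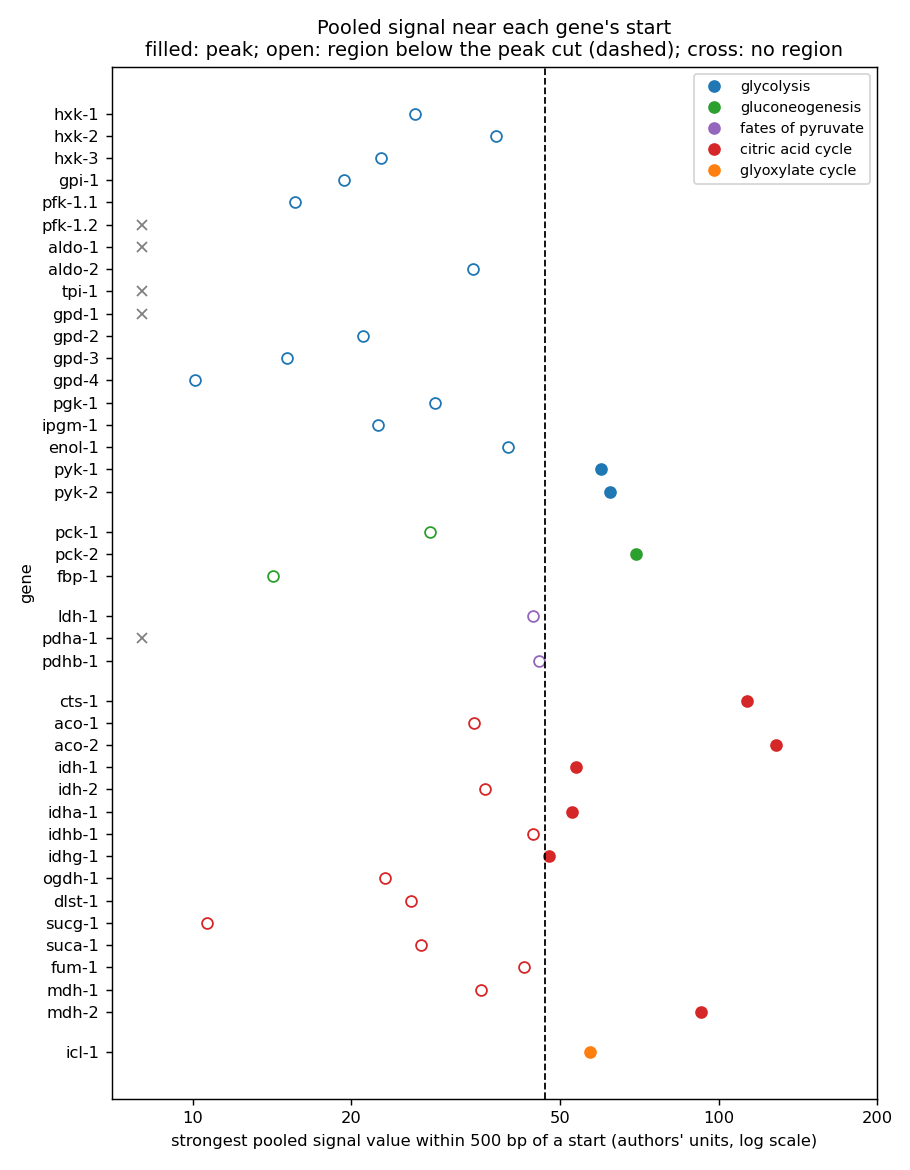
Strongest pooled signal value (authors' units, log scale) of a region with its summit within 500 bp of a start, for each of the 40 genes by pathway. Filled points are genes with a peak, open points genes whose region lay below the peak cut of 46.7 (dashed line), and crosses genes with no region, and the points of the citric acid cycle reach 128 while those of glycolysis end at 62.2.

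In glycolysis, the only genes with a peak were those of pyruvate kinase, which makes pyruvate and ATP from phosphoenolpyruvate. The peak of pyk-2 (WBGene00014001, chromosome IV, 10909913 to 10913078), at 10909740 to 10910099, had a pooled signal of 62.2 at rank 2049. It ranked 4124 in replicate 1 (signal 16.7) and 1606 in replicate 2 (signal 47.8), and the summit lay 5 bp downstream of a start, in the 5′ untranslated exon. The peak of pyk-1 (WBGene00009126, chromosome I) had a pooled signal of 59.9 at rank 2210, and ranks of 1421 (signal 28.0) and 2679 (signal 36.5). Its summit lay in an intron, 222 bp downstream of the nearest start. Only that of pyk-1 was among the 3457 strongest regions of both replicates.

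Within 500 bp of a start, the other steps of glycolysis had weaker regions or none. The strongest was that of enol-1, which encodes enolase, with a pooled signal of 39.7 at rank 4320. It ranked 3224 in replicate 2, while the strongest region near its starts in replicate 1 ranked 25320. Next came hxk-2, 1 of 3 hexokinase genes, which trap glucose in the cell, at rank 4645 (signal 37.7), and ranked 6676 and 5545. The aldolase gene aldo-2 had a pooled rank of 5270 (signal 34.1), with rank 2715 in replicate 2 and no region in replicate 1. The genes pgk-1, for phosphoglycerate kinase, and hxk-1 followed at ranks 6556 and 7320, the last of glycolysis with a q-value under 0.05. The genes hxk-3, ipgm-1 (phosphoglycerate mutase), gpi-1 (glucose-6-phosphate isomerase) and pfk-1.1 (phosphofructokinase, the main control point) lay between ranks 8901 and 14827, among regions with a q-value above 0.05. No pooled region lay near pfk-1.2, aldo-1, tpi-1 (triosephosphate isomerase) or gpd-1, and in the single replicates those of aldo-1 and gpd-1 were no stronger than ranks 24160 and 23646, both in replicate 1. Farther out, a peak of rank 656 lay in intergenic DNA at -1191 bp from tpi-1. Another, of rank 2328, lay in an intron of hxk-1 at -1560 bp from its nearest start. Cycle genes also had peaks at such distances, as suca-1 at -1073 bp (rank 1768) and mdh-1 at 1276 bp (rank 2112).

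The genes of glyceraldehyde-3-phosphate dehydrogenase had no peak within 500 bp. Those of gpd-2 and gpd-3, which lie in tandem on chromosome X, had regions at ranks 9851 (signal 21.0) and 15669 (signal 15.1), and that of gpd-4 ranked 26537. Operons, in which genes share the promoter of the first gene, were not annotated in the references used, so a start of gpd-2 or gpd-3 may not have a promoter of its own. The same limit holds for enol-1, 56 bp behind mrpl-50 on the same strand, and pdha-1, 91 bp behind ufd-2. Such a gap was under 500 bp for 7 of the 40 genes (17.5%), against 17.7% of all protein-coding genes. The 4 glyceraldehyde-3-phosphate dehydrogenase genes are closely similar to each other, and no source used here says what was done with reads matching several places, so their values are uncertain. A peak of rank 2699 lay in an intron of mai-1 at -570 bp from gpd-2, so gpd-2 was counted with a window of 1000 bp (12 of the 40 genes, 13.2% of all genes) or where the peak's interval rather than its summit had to reach the window (11 of the 40 genes, 11.4% of all genes).

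Among the genes of gluconeogenesis, pck-2 had 2 peaks. It encodes a phosphoenolpyruvate carboxykinase, which makes phosphoenolpyruvate from oxaloacetate (WBGene00011232, chromosome I, 7866136 to 7872100). One summit lay in an intron 461 bp downstream of the nearest start, with a pooled signal of 69.7 at rank 1592. The other lay at -40 bp from a start, in an untranslated exon, with a signal of 65.1 at rank 1853. In replicate 2 they ranked 1140 and 1032, and in replicate 1 the nearest overlapping regions ranked 4517 and 15601, so pck-2 had no peak without replicate 2. The paralogue pck-1 had a region at rank 6729, with its summit at 499 bp, at the very edge of the window. The strongest region of fbp-1, which encodes fructose-1,6-bisphosphatase, ranked 17017 (signal 14.2), among the background.

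Of the genes that decide the fate of pyruvate, pdhb-1 and ldh-1 lay just outside the cut. The region of pdhb-1, a subunit of the first enzyme of the pyruvate dehydrogenase complex, had a pooled signal of 45.5 at rank 3582, with ranks of 4427 and 4266. That of ldh-1, the lactate dehydrogenase gene, had a signal of 44.3 at rank 3719, with ranks of 3769 and 4719. No pooled region lay near pdha-1, which encodes the partner subunit of pdhb-1. The partition at 46.7 thus ran through a close series, from idh-1 (53.5), idha-1 (52.6) and idhg-1 (47.7) inside to pdhb-1 (45.5), idhb-1 (44.3), ldh-1 (44.3) and fum-1 (42.7) outside.

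In the glyoxylate cycle, icl-1 (WBGene00001564, chromosome V, 724332 to 728004), whose product is isocitrate lyase and malate synthase in a single protein, had a peak at 727789 to 728148. It had a pooled signal of 56.9 at rank 2441, and its summit lay 24 bp downstream of a start, in an untranslated exon. The summit was at -332 bp from srh-2, a chemoreceptor gene that faces icl-1. The nearest replicate regions ranked 1951 (signal 24.5) and 3902 (signal 28.7). Several regions crowded this stretch, and the strongest near a start in replicate 1 was another, at rank 843. Since its replicate 2 rank of 3902 lay beyond the 3457 strongest, icl-1 had no peak without replicate 1.

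Regions below the peak cut were also counted. A pooled region with a q-value under 0.05 lay near 26 of the 40 genes (65%), against 20.7% of all protein-coding genes. The citric acid cycle had 14 of 15, all but sucg-1, whereas glycolysis had 7 of 18 (38.9%). Any pooled region lay near 35 of the 40 genes, against 37.8% of all protein-coding genes, with 15 of 15 in the cycle and 14 of 18 in glycolysis. Among genes with such a region, the median of the strongest pooled signal was 42.7 in the cycle, 24.6 in glycolysis and 25.3 over all protein-coding genes.

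**Figure D2:**
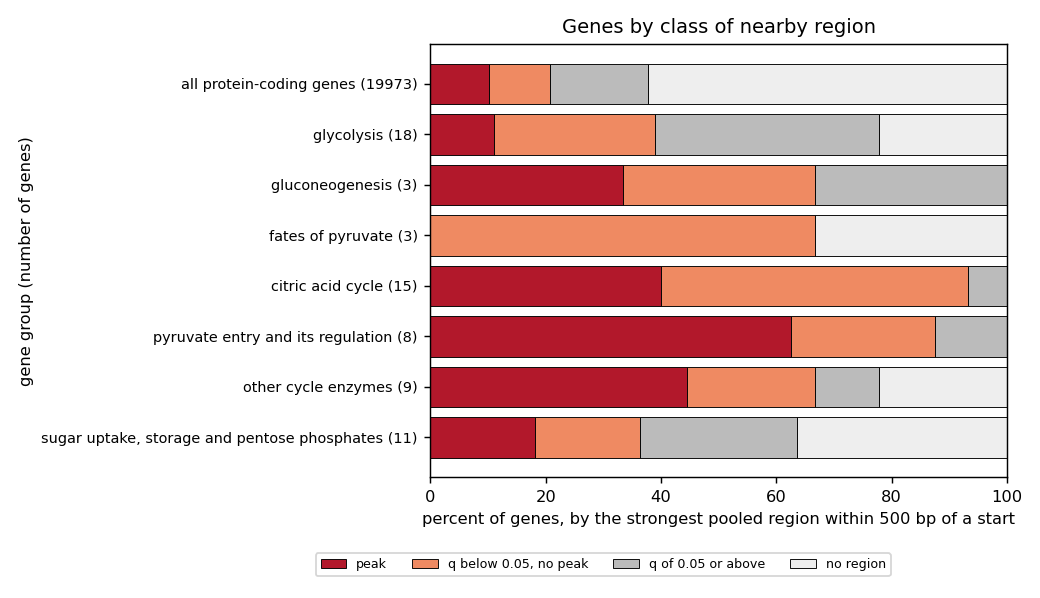
Percent of the genes in each group by the strongest pooled region with its summit within 500 bp of a start: a peak, a region with a q-value below 0.05 that is no peak, a region with a higher q-value, or no region. Peaks take 40% of the 15 citric acid cycle genes and 11.1% of the 18 glycolysis genes, against 10.2% of 19973 protein-coding genes.

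The 12 peaks, of which cts-1 and pck-2 hold 2 each, leaned to replicate 2, as did the peaks as a whole. Of the 12 peaks, 11 overlapped a nearest region among the 3457 strongest of replicate 2 and 6 did so in replicate 1. Over all 3457 peaks, the shares were 84.4% and 74.6%. Of the 12, 8 ranked higher in replicate 2 than in replicate 1, against 55.2% of all peaks. With the 3457 strongest regions of replicate 2 alone, 12 of the 40 genes had a region near a start (10.1% of all genes did), and 9 of them were shared with the 10 above. With those of replicate 1 alone the number was 7 (9.85% of all genes), 6 of them shared. Among the shared genes, idh-1 had its strongest replicate 1 region away from its peak, at -434 bp and rank 1875. The replicate 1 region that overlapped the peak of idh-1 ranked 5040. Glycolysis then had 4 genes without replicate 1, since aldo-2 and enol-1 joined, and 1 without replicate 2, pyk-1. The cycle had 7 and 5.

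**Figure D3:**
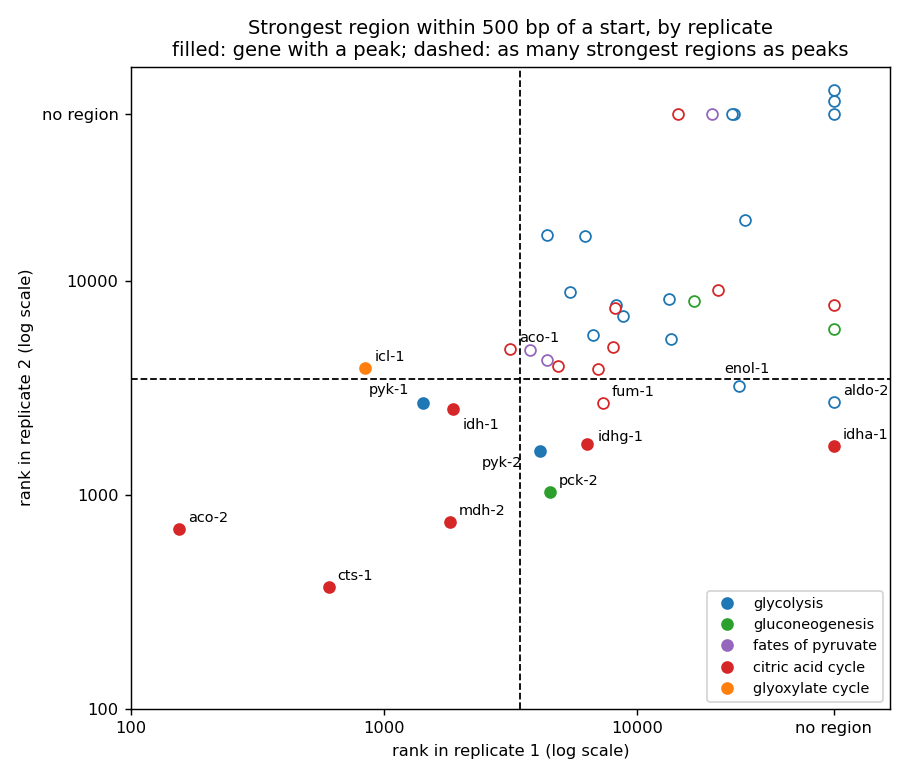
Rank of the strongest region within 500 bp of a start in replicate 1 (x axis) and replicate 2 (y axis), both on log scales, for the 40 genes, with genes that had no region placed at the end of the axis and those with none in both stacked for visibility. Filled points are genes with a peak, dashed lines mark rank 3457, and aco-2, cts-1, mdh-2, pyk-1 and idh-1 are the filled points inside both lines. The point of idh-1 joins regions at different places in the replicates.

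In position, the peaks of these genes lay on both sides of the start. Of the 12 summits, 7 were upstream of the nearest start of the gene, and 5 were downstream, whereas 85.4% of the 1765 peaks within 500 bp of any protein-coding start lay upstream of the nearest one. The upstream summits were those of cts-1, aco-2, mdh-2, idha-1 and idhg-1 and 1 of those of pck-2. That summit of pck-2, at 7866209, was upstream only of a later start and lay downstream of the start of the gene record, 7866136. Those downstream belonged to pyk-1, pyk-2, pck-2, idh-1 and icl-1, and the 6 peaks of mitochondrial cycle enzymes were all upstream. Of the 12 summits, 5 were intergenic, 4 in an untranslated exon of the gene, 2 in an intron and that of aco-2 in an exon of a noncoding RNA gene. Because trans-splicing removes the first bases of many worm messages, annotated starts can lie downstream of the true ones. By chromosome, peaks were found for 4 of 8 genes on III (12.3% of all genes there), 3 of 9 on I (11.7%), 2 of 6 on IV (10.5%), 1 of 4 on V (8.31%), 0 of 6 on II (9.57%) and 0 of 7 on X (10.8%).

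**Figure D4:**
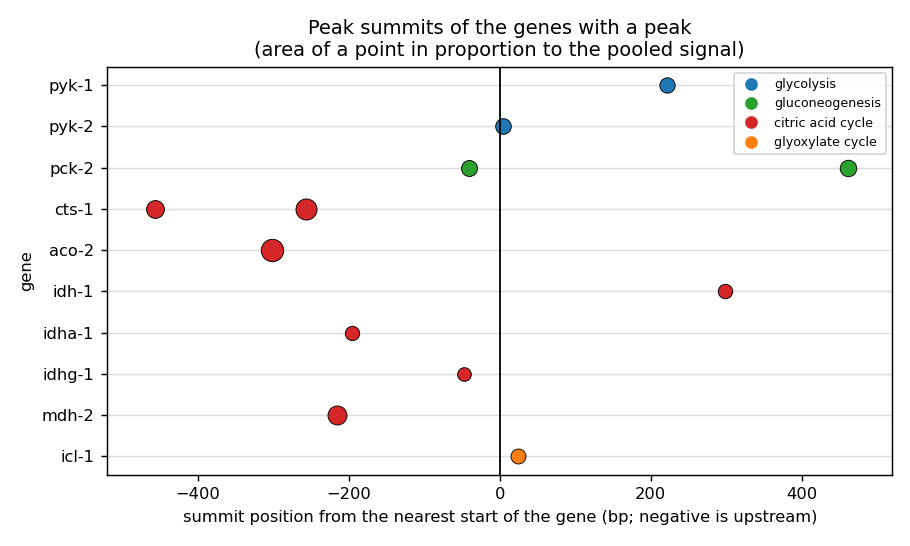
Position of each of the 12 peak summits from the nearest start of its gene, in bp, with negative values upstream and the area of a point in proportion to the pooled signal. The peaks of cts-1, aco-2, mdh-2, idha-1 and idhg-1 are upstream, from -457 to -47 bp, and those of pyk-1, pyk-2, idh-1 and icl-1 downstream, from 5 to 298 bp.

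The windows around the summits, 101 bp long, were searched on both strands for 10 motifs. The motif TGATAA, bound by factors of the GATA family, was at 2 of the 12 summits, cts-1 and icl-1, against 28.9% of all peaks and 11% of windows of the same length centred 200 bp upstream of all protein-coding genes. The longer form CTGATAA, which contains it, was at icl-1 only (11.7% of all peaks), and AGATAA was at 0 of 12 (8.50%). CACGTG, an E-box, was at idhg-1, as seen in its printed sequence, against 5.55% of all peaks. The shorter ACGTG, the core of the hypoxia response element, which CACGTG contains, was at no other of the 12 (16.2% of all peaks). AGGTCA, a nuclear receptor half-site, was at the stronger peak of cts-1, where it stands as its reverse complement, and at pyk-1, against 3.15% of all peaks and 2.67% of the upstream windows. The half-site AGTTCA was at idh-1 (5.35%). None of the 12 had GTAAACA, a forkhead site (2.83%), GA repeated 4 times (4.95%) or T repeated 8 times (6.25%). The sequences of aco-2, mdh-2 and dld-1 thus held none of these motifs in the stretches printed. The median GC content of the 12 windows was 46.0%, against 41.6% for all peaks and 33.7% for the upstream windows.

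Further genes of these pathways, 30 by name, were looked up in the same way, and 11 had a peak (36.7%, against 10.2% of all genes). Among 8 genes for the entry of pyruvate into the mitochondrion and its regulation, 5 had one. The strongest was at dld-1, the dihydrolipoamide dehydrogenase shared by the pyruvate and oxoglutarate dehydrogenase complexes, with a pooled signal of 198 at rank 87 and ranks of 91 and 79 in the replicates. Its summit, at -263 bp, lay in an exon of the noncoding RNA gene LLC1.120 and 294 bp downstream of the start of nspg-9. Next was pyc-1, pyruvate carboxylase, which makes oxaloacetate from pyruvate, at rank 330 (signal 128) with ranks of 272 and 546, and it had a second peak at rank 2495. The genes mpc-1, a subunit of the mitochondrial pyruvate carrier, pdhk-2, the kinase that inhibits pyruvate dehydrogenase, and pdp-1, the phosphatase that reactivates it, ranked 841, 919 and 3216. The summit counted for pdp-1 was nearer to ZK973.8, at -55 bp. The genes dlat-1, dlat-2 and mpc-2 had regions below the cut.

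Of 9 other cycle genes, 4 had a peak, against 10.2% of all genes. They were sdha-1 (rank 489, signal 112), sdhb-1 (rank 3358) and mev-1 (rank 1011), all subunits of succinate dehydrogenase, and sucl-1, the alpha subunit of succinyl-CoA ligase (rank 1342, signal 75.3). The peaks of sdhb-1 and mev-1 lay between head-to-head genes. The summit counted for sdhb-1, at -165 bp, was nearer to cup-15, at -104 bp, and no region of replicate 1 overlapped its peak. The summit of mev-1 lay at -120 bp, with jmjd-4 at -139 bp. Neither sdha-2 nor sdhd-1 had a pooled region, and sucl-2, ogdh-2 and men-1 had regions below the cut.

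Set out by reaction, with these further genes included, 7 of the 8 steps of the citric acid cycle had at least 1 gene with a peak, all but fumarase. Of the 10 steps of glycolysis, 1 had such a gene, the final pyruvate kinase step. Of 3 steps of gluconeogenesis that glycolysis lacks, 2 had one, through pyc-1 and pck-2. Steps differ in their number of genes, from 1 to 5 in the cycle and from 1 to 4 in glycolysis, so a step with more genes had more chances to be counted, and 10.2% of all single genes had a peak. The aconitase step rests on the summit that lay nearer to eef-1B.1 than to aco-2. The steps of oxoglutarate dehydrogenase, succinyl-CoA ligase, succinate dehydrogenase and pyruvate carboxylase were counted only through further genes. For oxoglutarate dehydrogenase that gene was dld-1, which the pyruvate dehydrogenase complex shares, while ogdh-1 and dlst-1 had no peak. No further gene fell in a step of glycolysis, so the further genes could raise the count of the cycle but not that of glycolysis.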

How the data were processed

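Both samples were libraries of ChIP-seq in L4 larvae that carry eGFP-tagged NHR-77. The authors deposited lists of regions for each replicate and for both pooled, and an IDR-thresholded set (irreproducible discovery rate, a measure of how alike regions rank in both replicates). According to the listings deposited with each replicate, regions were called against a control. The signal value and the −log10 q of each region are the authors' deposited values, used as they stand. The sources used here do not state the peak caller, the aligner, the IDR threshold or the depth. Lists in ce10 were not used.

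Summits (start plus deposited offset, printed counting from 1) were compared with protein-coding transcript starts of Ensembl release 115 (WBcel235, the assembly of ce11). A replicate region was paired with a peak if it overlapped it, taking the nearest summit. All 40 genes are named, with further pathway genes that had a peak and genes sharing a peak. Of 31 further names, 1 was absent from the annotation. The members, lists and motifs were chosen with earlier results of these data known. The look-up was tested on simulated data. Python 3.11.15, numpy 2.4.6 and matplotlib 3.10.9 were used. Alternatives were the window, the peak threshold, single replicates, interval overlap, nearest gene and gene-record starts.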

Additional observations from a re-analysis of the deposited data

How the results depend on the processing

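Of 36 recomputed counts of genes with a peak (all 40 genes, glycolysis, gluconeogenesis and the citric acid cycle, under 9 alternatives each), 25 stayed within 1.5 times the reported count and 11 did not. A window of 250 bp left 3 citric acid cycle genes, since the summits of aco-2, cts-1 and idh-1 lie farther out (6.84% of all genes then had a peak). With the 1728 strongest peaks (5.51% of all genes), 4 of the 40 genes remained, with 0 in glycolysis and 3 in the cycle. With all pooled regions of q below 0.05 (20.7%), the counts were 26 of 40, 7 in glycolysis, 2 in gluconeogenesis and 14 in the cycle. Leaving out a replicate gave 7 to 12 genes in all, 1 to 4 in glycolysis, 0 to 1 in gluconeogenesis and 5 to 7 in the cycle. The share of the cycle genes was above that of the glycolysis genes under all 9 alternatives, which re-cut the same lists and are not independent of each other. Counting only the nearest gene dropped aco-2, and using gene-record starts dropped idh-1, but these settings were not combined. Of 20 motif counts with windows of 51 or 201 bp, 13 stayed within 1.5 times, and TGATAA was at 0 of 12 peaks with 51 bp (16.7% of all peaks) and at 5 of 12 with 201 bp (41.6%). No paired analysis was possible because the samples form 1 group. With 2 replicates, no depth and no untagged sample, a gene without a peak cannot be called unbound.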

Other observations

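Outside the central pathways, 11 genes for sugar storage and side branches were looked up, and 2 had a peak (18.2%, against 10.2% of all protein-coding genes). One was tkt-1, the transketolase of the pentose phosphate pathway, at rank 2602 with a pooled signal of 55.0, its summit at -158 bp and ranks of 953 and 3912 in replicates 1 and 2. The other was gpdh-2, a glycerol-3-phosphate dehydrogenase gene, at rank 2206 with a pooled signal of 60.0 and ranks of 1894 and 2593, with its summit in an intron of the gene itself. The transaldolase gene tald-1 fell below the cut at rank 4319, as did pfkb-1.1 and pfkb-1.2 at 6396 and 12990. No pooled region lay near tps-1 or tps-2, which make trehalose, nor near gspd-1, which opens the pentose phosphate pathway, or gpdh-1, and those of pygl-1 and gsy-1, which break down and build glycogen, ranked 15360 and 14069. Neither acly-1 nor acly-2, which encode ATP citrate lyase, had a peak (0 of 2).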
